A study of Gallus gallus with 9 samples.

Results

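In thymus RNA of 21-day-old ROSS 308 broiler chicks, 93 genes stood in one strict order of the 3 treatment groups. For 26 of them every GEN library lay above every LPS library and every LPS library above every CON library (the rising genes). For the other 67 the order was reversed, with every GEN library lowest and every CON library highest (the falling genes). GEN stands for chicks treated with both lipopolysaccharide and genistein, LPS for lipopolysaccharide alone and CON for the basic diet, with 3 libraries in each group. The labels give no doses, routes or times of treatment and no animal identity beyond the replicate number, so the spread between libraries may in part be technical. The order was asked of 10730 genes, out of 25016 in the deposited table. These carry an Ensembl identifier, are at least 100 bases long, lie outside the mitochondrial genome, the sex chromosomes and the small chromosomes 16, 25 to 28 and 30 to 33, and reach at least 1 FPKM (fragments per kilobase of gene length, scaled to the depth of the library) in at least 3 of the 9 libraries. Among these 10730 genes, 0.242% were rising and 0.624% falling. The genes were chosen by the order of these same FPKM values, so all values of the comparisons between groups below are a description of them, with no test. By that choice no group overlapped another in any of the 93 genes. Over the eligible genes, GEN and CON did not overlap in 9.16% (GEN higher) and 11.6% (GEN lower), LPS and CON in 5.66% (LPS higher) and 6.87% (LPS lower), and GEN and LPS in 9.31% (GEN higher) and 11.2% (GEN lower).

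The thymus is the organ in which T cells are made from immature thymocytes, and it holds these cells together with epithelium, macrophages and other stroma. Lipopolysaccharide, from the outer membrane of Gram-negative bacteria, is sensed by the innate immune receptor TLR4 and causes inflammation and, in mice, a loss of thymocytes. Genistein is a soy isoflavone that binds oestrogen receptors and inhibits tyrosine kinases. Gene names are not part of the deposited table, and the RefSeq gene table at hand, of another chicken assembly (GRCg7b), matched 0 of the 25016 identifiers. No function is therefore given to any gene, and the label "thymus" could not be set against marker genes. Genes are given by position in GRCg6a, the build of the submitters' processing notes, and 4 of them by identifier. In RNA of a whole organ, fewer cells of a type and less RNA per cell cannot be told apart.

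Each library held 19618047 to 25863282 gene fragments. CON 3 stood apart from the other 8 libraries, with a correlation across genes of 0.877 to 0.888 on the log2(FPKM + 1) scale, against 0.957 to 0.984 among the others. Its genes of 300 to 1000 bases were higher than its genes over 4000 bases by a median of 0.87 (log2) relative to the other libraries, where this difference lay between -0.09 and 0.08. This difference was -0.055, -0.065 and -0.094 in GEN and 0.083, 0.041 and -0.008 in LPS. In CON 1 and CON 2 it was 0.082 and 0.007, so that GEN lay lowest while LPS and CON overlapped. The total by which the authors scaled CON 3 was 0.767 times its sum of gene fragments, and 1.01 to 1.09 times in the other libraries. By group it was 1.047, 1.086 and 1.067 times in GEN and 1.034, 1.055 and 1.061 times in LPS. In CON 1 and CON 2 it was 1.01 and 1.022 times. Mitochondrial genes took 3.945% of the gene fragments in CON 3. Among the other 8 libraries their share was 1.81%, 1.93% and 1.88% in GEN, 1.54%, 1.78% and 1.52% in LPS and 1.43% and 1.55% in CON 1 and CON 2, so that it was highest in GEN while LPS and CON overlapped. The part of the mitochondrial share in the order of the genes was not tested. Ratios and log2 differences between GEN and CON in the deposited FPKM are therefore given for both sets with and without CON 3. For single genes some means of CON are given with CON 3 only. The split of 26 rising and 67 falling genes also depended on the totals by which the authors scaled the libraries. When each library was divided by its own sum of gene fragments, 55 genes were rising and 16 falling. Without CON 3 the split turned as well, from 45 rising and 102 falling genes to 70 and 41 on division by the sum.

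With all libraries the largest ratio of means belonged to a falling gene, and without CON 3 to a rising one. Of the 67 falling genes 36 were under 1.5-fold with all libraries, and 61 without CON 3. Of the 26 rising genes 8 were under 1.5-fold, and 11 without CON 3. Mean FPKM of the rising genes was 1.18 to 5.04 times as high in GEN as in CON, with a median ratio of 1.79. Without CON 3 the range was 1.12 to 4.92 and the median 1.58. A ratio of at least 2 was reached by 8 of the 26 genes, and by 6 without CON 3. For the falling genes the mean in CON was 1.2 to 8 times that in GEN, with a median of 1.47, and without CON 3 it was 1.1 to 3.49 times, with a median of 1.27. Of the 67 falling genes 6 reached a ratio of 2, and only 1 did so without CON 3. As differences of mean log2(FPKM + 1), GEN minus CON had a median of 0.63 over the rising genes and -0.54 over the falling genes, beside 0.02 over all 10730 eligible genes. Without CON 3 these medians were 0.51, -0.32 and -0.02. The heatmap of both sets shows the CON 3 column as the darkest in most falling genes and in part of the rising ones.

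**Figure D1:**
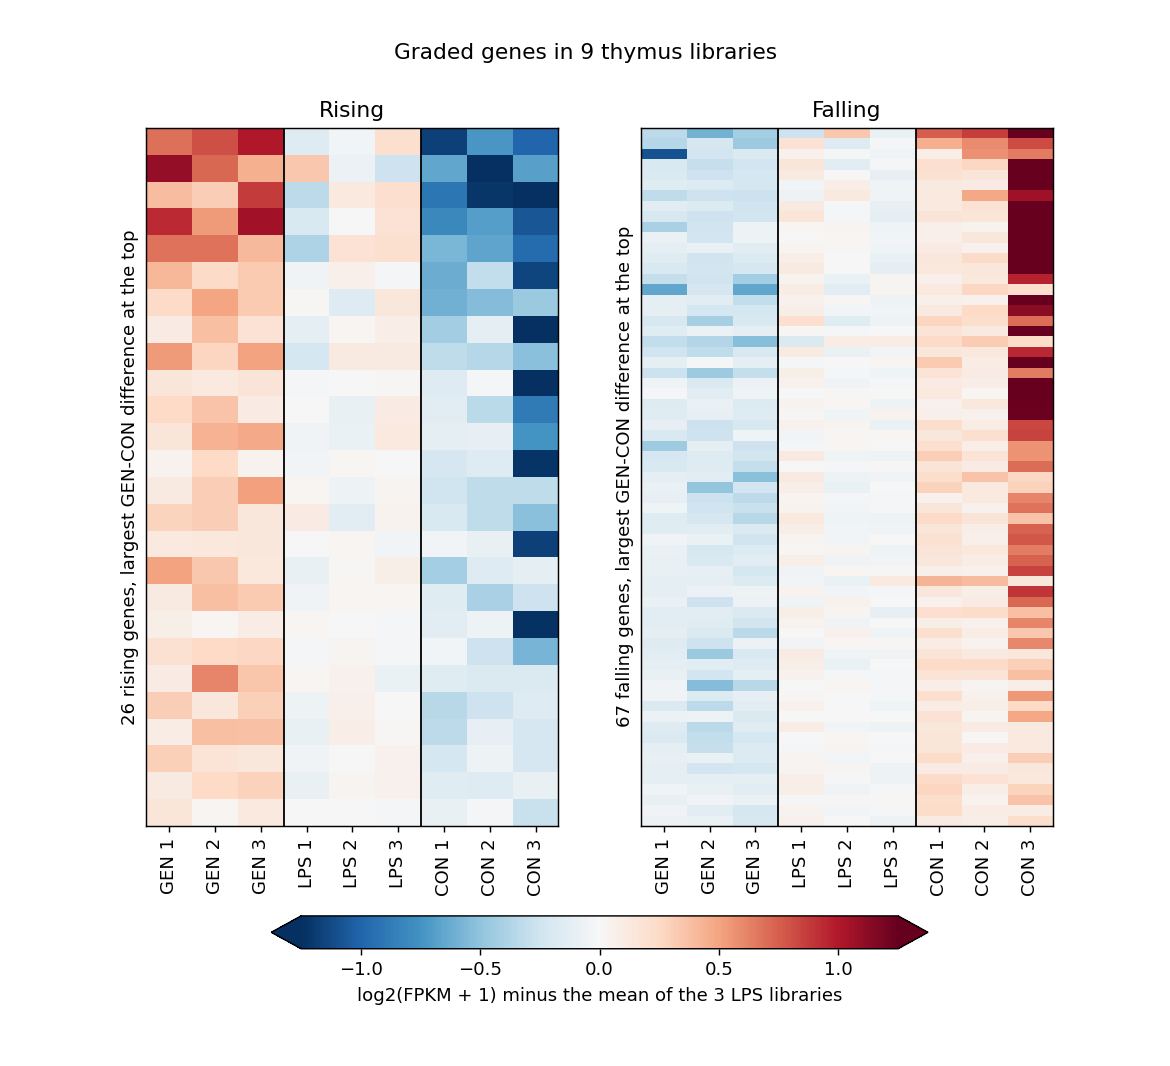
Heatmap of log2(FPKM + 1) in each of the 9 libraries (columns, GEN, LPS and CON) minus the mean of the 3 LPS libraries, for the 26 rising genes (left) and the 67 falling genes (right), one row per gene, sorted by the size of the GEN minus CON difference. Colours end at the limits of the bar, and CON 3 lies beyond CON 1 and CON 2 in 56 of the 67 falling genes.

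Of the rising genes, ENSGALG00000009651 (chromosome 9, 22606347 to 22610846, + strand) had the largest difference. It measured 6.96, 7.61 and 8.90 FPKM in the GEN libraries, 3.41, 3.81 and 4.67 in the LPS libraries and 1.20, 1.98 and 1.48 in the CON libraries. Both steps were of like size, GEN minus LPS being 0.83 and LPS minus CON 0.96 on the log2(FPKM + 1) scale. On division by the sum of gene fragments CON 3 was lowest, with 1.22, 2.02 and 1.13 in CON 1, CON 2 and CON 3. In the deposited FPKM it lay between the other CON libraries. The mean was 7.83 ± 0.988 FPKM in GEN, 3.96 ± 0.644 in LPS and 1.55 ± 0.394 in CON (± SD, 3 libraries a group), which makes GEN minus CON 1.79 on the log2(FPKM + 1) scale. The values rest on 193 to 289 fragments per library in GEN, 117 to 153 in LPS and 30 to 63 in CON. A gene model on the other strand overlaps it, and since no strand setting of the counting is given, fragments of the pair cannot be told apart with certainty.

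ENSGALG00000009700 (chromosome 2, 23905072 to 23914501, - strand) measured 17.8, 13.4 and 10.9 FPKM in GEN, 10.1, 7.33 and 6.32 in LPS and 4.60, 1.67 and 4.50 in CON. GEN and LPS came near each other here, with GEN 3 above LPS 1 by a factor of 1.08. Its means were 14.1 ± 3.47 FPKM in GEN, 7.92 ± 1.96 in LPS and 3.59 ± 1.66 in CON (± SD, 3 libraries a group), and GEN minus CON was 1.77 (log2).

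The next in size were a short gene model of 130 bases on chromosome 9 (16359427 to 16359556) and a gene on chromosome 1 (14925155 to 14945434). The short model measured 11.5, 10.8 and 16.6 FPKM in GEN, 6.62, 9.42 and 10.04 in LPS and 4.11, 3.13 and 2.45 in CON. These values come from 5 to 54 fragments per library, and the model overlaps another on its own strand. The chromosome 1 gene measured 14.3, 10.6 and 15.6 FPKM in GEN, 6.04, 7.06 and 8.09 in LPS and 3.59, 3.98 and 2.82 in CON. With 117 to 1033 fragments per library, its lowest GEN library exceeded its highest LPS library 1.31-fold, and its lowest LPS library exceeded its highest CON library 1.52-fold. No other gene model overlaps it. The plot of the named genes by library shows the spread within each group.

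**Figure D2:**
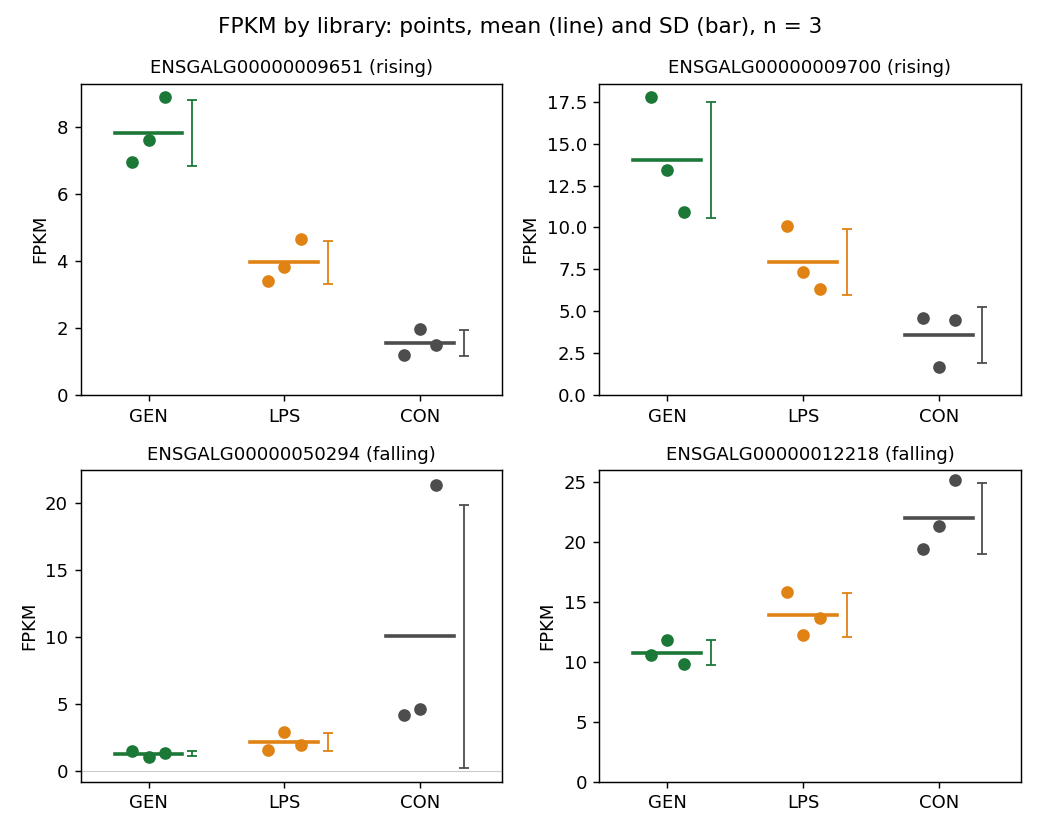
FPKM (vertical axis, linear, 0 included) of the 2 rising and 2 falling genes with the largest GEN minus CON difference, in the GEN, LPS and CON libraries, with points for libraries, a line for the mean and a bar for the SD (n = 3). The groups do not overlap in any panel, and CON 3 of ENSGALG00000050294, at 21.4 FPKM, sets the SD of its group.

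Both genes of chromosome 24 in the rising set followed. The one at 4498522 to 4569876 averaged 10.1 ± 1.18 FPKM in GEN, 6.51 ± 1.60 in LPS and 3.47 ± 0.611 in CON (± SD, 3 libraries a group). The one at 6169486 to 6173722 averaged 7.42 ± 0.517 FPKM in GEN, 5.71 ± 0.258 in LPS and 3.26 ± 1.20 in CON. For the second, CON 3 was 0.52 times the mean of CON 1 and CON 2, and without CON 3 the mean in CON was 3.89 FPKM. These genes, with ENSGALG00000009651 and the chromosome 1 gene above, were the 4 of 93 in which both gaps between the nearest libraries of neighbouring groups were at least 1.1-fold. A gene on chromosome 18 (7924961 to 7946282) measured 8.26, 10.1 and 8.88 FPKM in GEN, 6.96, 6.03 and 7.65 in LPS and 4.17, 4.38 and 4.69 in CON. CON 3 was thus highest of its group as deposited. On division by the sum of gene fragments it was lowest, with 4.21, 4.48 and 3.59 in CON 1, CON 2 and CON 3. In a gene on chromosome 6 (31268250 to 31304876), CON 3 lay at 2.71 FPKM as deposited, against 5.88 in CON 1 and 7.54 in CON 2. Its GEN minus CON difference was 0.85 (log2) with CON 3 and 0.50 without it.

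The rising genes were mostly of low abundance. Their mean over the 9 libraries ran from 1.34 to 202 FPKM with a median of 7.06, and 19 of the 26 lay under 10 FPKM. Over the eligible genes the median was 11.5 FPKM, and 4888 of 10730 lay under 10 FPKM. The most abundant, on chromosome 3 (67074926 to 67146996), measured 282, 234 and 276 FPKM in GEN, 167, 209.7 and 209 in LPS and 156, 152 and 135 in CON. It carried 3592 to 11714 fragments per library. Its mean in GEN was 1.79 times that in CON, and 1.72 times without CON 3. The rising genes next in abundance were graded more weakly. The gene at 106613562 to 106632348 of chromosome 1 averaged 21.6 ± 1.42 FPKM in GEN, 17.9 ± 0.820 in LPS and 14.9 ± 1.07 in CON. The gene at 5127284 to 5143926 of chromosome 20 averaged 19.9 ± 1.26 FPKM in GEN, 16.7 ± 1.56 in LPS and 12.9 ± 1.59 in CON. The gene at 2714508 to 2770441 of chromosome 7 averaged 16.1 ± 0.775 FPKM in GEN, 14.9 ± 0.112 in LPS and 13.6 ± 1.37 in CON (± SD, 3 libraries a group).

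Of the falling genes, ENSGALG00000050294 (chromosome 4, 91067250 to 91068820, - strand) had the largest difference. It measured 1.44, 1.04 and 1.28 FPKM in GEN, 1.57, 2.87 and 1.90 in LPS and 4.18, 4.58 and 21.4 in CON. CON 3 was 4.89 times the mean of the other CON libraries, and the ratio of CON to GEN of 8 fell to 3.49 without it. With 18 to 26 fragments per library in GEN, against 34 to 55 in LPS and 76 to 272 in CON, it was also the one falling gene with under 100 fragments in a library, and another model overlaps it on its own strand. ENSGALG00000012218 (chromosome 1, 50847151 to 50849565, - strand) measured 10.6, 11.9 and 9.81 FPKM in GEN, 15.9, 12.3 and 13.6 in LPS and 19.4, 21.4 and 25.2 in CON. CON 3 was 1.24 times the mean of the other CON libraries here, and the means were 10.8 ± 1.03 FPKM in GEN, 13.9 ± 1.81 in LPS and 22 ± 2.96 in CON (± SD, 3 libraries a group). GEN minus CON was -0.96 (log2), and -0.86 without CON 3.

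Of the 6 falling genes next in size, one of them the scaffold gene described below, 5 had CON 3 at least 1.7 times the mean of CON 1 and CON 2. A gene on chromosome 1 (50691560 to 50697388) measured 589.8, 561 and 576 FPKM in GEN, 723, 669.5 and 623 in LPS and 764, 747 and 2052 in CON. Another of chromosome 1 (78070071 to 78071702) measured 24.1, 22.5 and 23.2 FPKM in GEN, 30.8, 25.1 and 27.3 in LPS and 32.1, 33.3 and 77.7 in CON. For these genes GEN minus CON was -0.87 and -0.88 (log2) with CON 3 and -0.39 and -0.47 without it. A gene on chromosome 4 (69289315 to 69296300) likewise stood at -0.79 with CON 3 and -0.34 without. The gene on chromosome 3 (16636721 to 16639607) averaged 14.1 ± 0.351 FPKM in GEN, 17.3 ± 1.36 in LPS and 26.9 ± 9.28 in CON, or 21.8 without CON 3. The exception, on chromosome 12 (9552849 to 9554849), had GEN 1 far below the other GEN libraries: it measured 9.29, 17.6 and 18.3 FPKM there, 21.8, 20.7 and 20.3 in LPS and 22.2, 31.4 and 33.3 in CON.

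Abundant transcripts took a larger share of the falling set than of the eligible genes. Of the 67, 23 falling genes (34.3%) averaged at least 100 FPKM, against 5.32% of eligible genes, and 9 (13.4%) averaged at least 1000 FPKM, against 0.578%. The most abundant, of 579 bases on an unplaced scaffold (5251 to 9454), measured 2426, 2383 and 2312 FPKM in GEN, 2633, 2859 and 2587 in LPS and 2904, 2892 and 9572 in CON. CON 3 was 3.30 times the mean of the other CON libraries here, and LPS 2 came within a factor of 1.01 of CON 2. A gene on chromosome 11 (18734052 to 18738360) measured 2414, 2346 and 2376 FPKM in GEN, 2982, 2771 and 2528 in LPS and 3022, 3041 and 6874 in CON. A gene on chromosome 10 (1790978 to 1793271) measured 2291, 2138 and 2258 FPKM in GEN, 2684, 2548 and 2394 in LPS and 2792, 2997 and 6255 in CON. In the deposited FPKM CON 3 lay close to its group in one gene as abundant, on chromosome 3 (81503064 to 81509231). It was 1.11 times the mean of CON 1 and CON 2 there. That gene measured 2677, 2569.8 and 2351 FPKM in GEN, 3239, 2876 and 2846 in LPS and 3518, 3339.8 and 3811 in CON, from at least 179019 fragments per library. Its GEN minus CON difference was -0.49 (log2), and -0.44 without CON 3. It is also the one named gene whose direction depended on the scaling: with quantile normalization GEN minus CON was 0.04 and LPS minus CON 0.23. On division by the sum of gene fragments it measured 3552, 3413 and 2922 in CON, against 3348, 3035 and 3021 in LPS. CON 3 then lay below every LPS library, and the falling order was lost.

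Abundant genes as a class leaned the same way. Over the 62 eligible genes of at least 1000 FPKM the median of GEN minus CON was -0.57 (log2), or -0.26 without CON 3, while over the 10159 eligible genes under 100 FPKM it was 0.04, or -0.01 without CON 3. The 9 falling genes of at least 1000 FPKM had a median of -0.74, or -0.36 without CON 3. The 44 falling genes under 100 FPKM had -0.48, or -0.33 without CON 3. The part of abundance in the order was not tested.

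As a sum, the 67 falling genes took 3.34%, 3.33% and 3.20% of all gene fragments in the GEN libraries, 3.91%, 3.68% and 3.61% in the LPS libraries and 4.07%, 4.04% and 5.36% in the CON libraries. The 95% Wilson interval of the smallest of these shares, of GEN 3, was 3.19% to 3.21%, and that of the largest, of CON 3, 5.35% to 5.37%, which covers counting error only. The genes were chosen on FPKM of the same libraries, so these shares are a description only. For a fixed list of genes they do not depend on the total by which the authors scaled each library, but the list itself does. On division by the sum of gene fragments, 16 genes were falling. The 9 falling genes of at least 1000 FPKM made up most of the falling sum. These 9 took 2.44%, 2.45% and 2.32% in GEN, 2.90%, 2.71% and 2.63% in LPS and 3.01%, 3.01% and 3.94% in CON. The 26 rising genes together took 0.137%, 0.134% and 0.139% in GEN, 0.0964%, 0.107% and 0.109% in LPS and 0.0805%, 0.0809% and 0.0507% in CON. CON 1 and CON 2 lay within each other's counting interval in the rising sum, and CON 3 below both. The most abundant rising gene alone gave 10222 of the 27893 fragments of this sum in GEN 1 and 3592 of 10383 in CON 3.

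**Figure D3:**
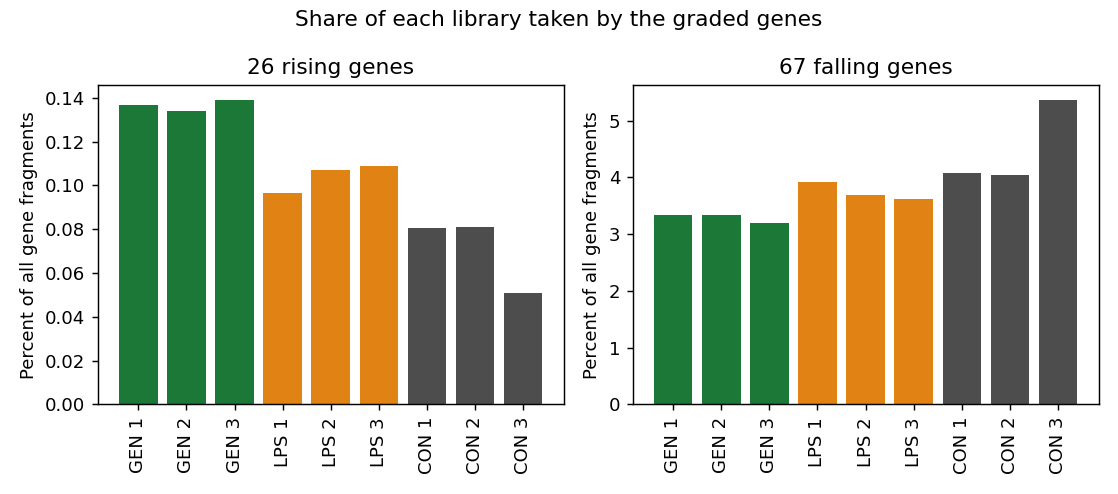
Share of all gene fragments of each library (percent, bars from 0) taken by the 26 rising genes (left) and the 67 falling genes (right), in the GEN, LPS and CON libraries. The falling genes took 3.20% to 3.34% in GEN, 3.61% to 3.91% in LPS and 4.04% to 5.36% in CON. Most of this came from the 9 falling genes of at least 1000 FPKM.

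The sets differed in gene length. The rising genes had a median length of 3035 bases and the falling genes of 1664 bases, beside 2338 bases over the eligible genes. Of the falling genes 20.9% were at most 1000 bases long and 2.99% over 4000, while of the rising genes 3.85% were at most 1000 and 30.8% over 4000. Among eligible genes these shares were 11.7% and 15%. CON 3 moved with length over all eligible genes: its FPKM was a median of 1.41 times the mean of CON 1 and CON 2 in eligible genes of at most 1000 bases and 0.753 times in those over 4000 bases. In eligible genes of 1001 to 2000 bases it was 1.175 times, and in those of 2001 to 4000 bases 0.91 times. In the 14 falling genes of at most 1000 bases the median was 2.31 times (the shortest of them is 264 bases). In the 32 of 1001 to 2000 bases it was 1.46 times and in the 19 of 2001 to 4000 bases 1.11 times. In the 15 rising genes of 2001 to 4000 bases it was 0.695 times, and in the 8 over 4000 bases 0.965 times. Short genes relative to long ones were higher in CON 3 by 0.87 (log2). In the other 8 libraries this difference was far smaller, between -0.09 and 0.08. Among these it was lowest in the GEN libraries, at -0.094 to -0.055, against -0.008 to 0.083 in LPS. The part of gene length in the order was not tested.

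**Figure D4:**
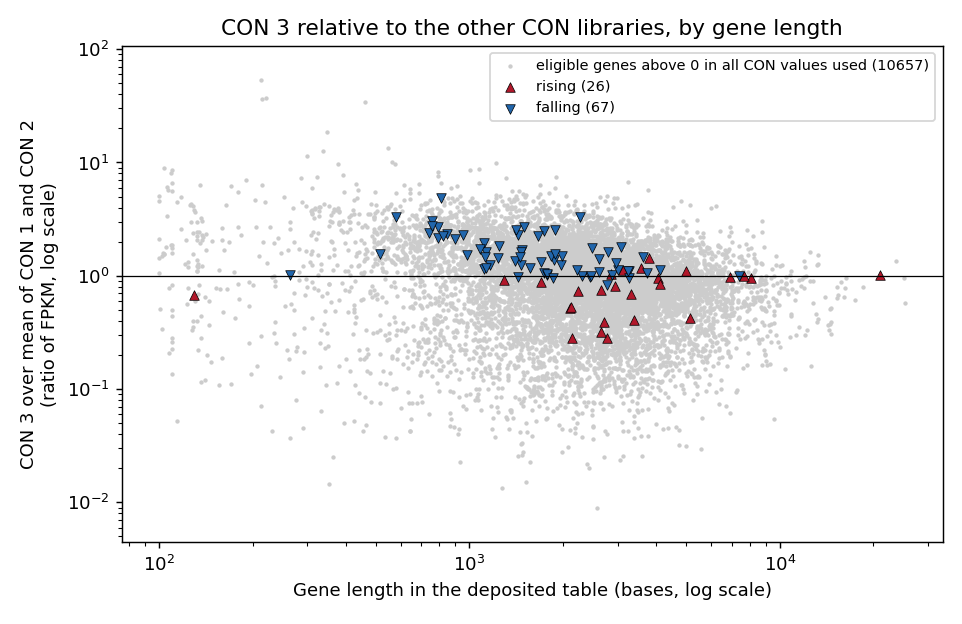
FPKM of CON 3 over the mean of CON 1 and CON 2 (vertical, log scale) against gene length (bases, log scale) for the 10657 eligible genes with values above 0 there (grey), the 26 rising genes (upward triangles) and the 67 falling genes (downward triangles). The median ratio is 0.83 in the rising genes, 1.47 in the falling genes and 0.955 over all 10730 eligible genes. Among genes of at most 1000 bases it is 2.31 in the falling genes and 1.41 in the eligible genes. The ratios of both sets are partly set by the choice of genes.

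CON 3 was the highest of the CON libraries in 56 of the 67 falling genes and the lowest in 17 of the 26 rising genes. Over all eligible genes it was highest in 42.9% and lowest in 47.4%. A low CON 3 tends to break the falling order, and a high one the rising order. These counts are therefore partly set by the choice of genes. It exceeded 1.5 times the mean of CON 1 and CON 2 in 30 falling genes, and fell short of that mean by the same factor in 8 rising genes. In 15 falling and 8 rising genes it lay within 1.1-fold of that mean. The place of CON 3 among the CON libraries also depends on the totals of the authors. That of CON 3 was 0.767 times its sum of gene fragments, against 1.01 and 1.022 times in CON 1 and CON 2. The order itself needs every CON library, so CON 1 and CON 2 alone also kept it in each of the 93 genes. When the order was asked only of the 8 libraries without CON 3, 45 genes were rising and 102 falling. Leaving out any library can only add genes. With CON 1 left out there were 38 rising and 93 falling genes, and with CON 2 left out 96 and 208.

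How far LPS stood along the way from CON to GEN also hung on CON 3. With all libraries, LPS covered a median of 66.3% of the log2 difference in the falling genes, and the difference between LPS and CON was the larger of both steps in 54 of 67. Without CON 3 LPS covered 43.7%, and that step was the larger in 21 of 67. In the rising genes LPS covered 55.8% with CON 3, the step from CON to LPS being the larger in 17 of 26, and 48.8% without it, with 13 of 26. The plot of both steps without CON 3 shows most falling genes close to the origin and several rising genes far out along the line of equal steps. As medians of log2(FPKM + 1), GEN minus LPS, which involves no CON library, was 0.27 in the rising and -0.19 in the falling genes, beside -0.01 in eligible genes.

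**Figure D5:**
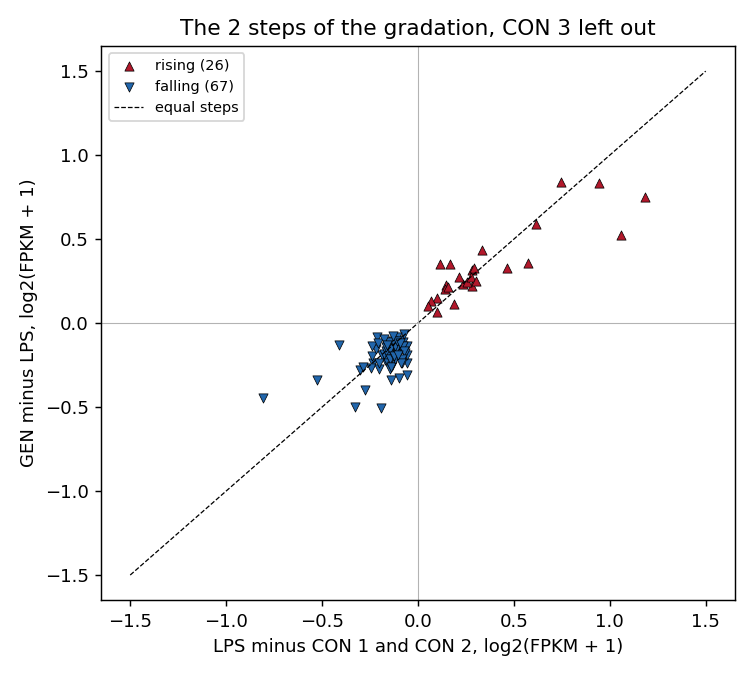
GEN minus LPS (vertical) against LPS minus the mean of CON 1 and CON 2 (horizontal), both as differences of mean log2(FPKM + 1), for the 26 rising and the 67 falling genes. The dashed line marks equal steps, and the step from CON to LPS is the larger in 13 of the rising and 21 of the falling genes.

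Counting intervals of the nearest libraries of neighbouring groups overlapped in most of the genes. The smaller of the pair of gaps of a gene, taken between the nearest libraries, had a median of 1.02-fold in both sets and was under 2% in 12 rising and 42 falling genes. Exact 95% Poisson intervals of the nearest libraries overlapped at one gap or both in 23 of 26 rising and 62 of 67 falling genes. Overlap of such intervals does not by itself place a gap within counting error, and it was not counted over eligible genes. The 3 rising genes without any overlap were ENSGALG00000009651, the gene at 14925155 to 14945434 of chromosome 1 and the abundant gene of chromosome 3. The 5 falling ones include the abundant genes of chromosomes 3 and 10 described above. Just inside the rule stood a rising gene on chromosome 12 (12191823 to 12223412), with 12.27 FPKM in LPS 1 against 12.26 in CON 3, and one on chromosome 5 (50105817 to 50190209), with 12.88 FPKM in LPS 3 against 12.86 in CON 1. Among falling genes, the narrowest were one on chromosome 6 (23305911 to 23307580), with 48.85 FPKM in GEN 3 against 48.88 in LPS 3, and one on chromosome 1 (395826 to 401417), with 10.467 FPKM in LPS 2 against 10.474 in CON 1. Just outside, a gene on chromosome 2 (26800481 to 26802605) missed the rising order with 21.30 FPKM in GEN 3 against 21.36 in LPS 2, and one on chromosome 3 (97177532 to 97270178) with 6.51 FPKM in LPS 1 against 6.56 in CON 2. A gene on chromosome 8 (21119710 to 21124237) missed the falling order with 2145.2 FPKM in GEN 3 against 2145.0 in LPS 3, and one on chromosome 6 (12236270 to 12237861) with 70.07 FPKM in LPS 1 against 70.01 in CON 2.

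The rule asked for no order of libraries within a group, but it used the same values. The order within groups is therefore partly set by the choice of genes. It was uneven among the falling ones. GEN 1 was the highest GEN library in 40 of 67 falling genes, where over eligible genes it was highest in 35.9%. LPS 1 was the highest LPS library in 44 of 67, against 37.3% over eligible genes, and CON 2 the lowest CON library in 46, against 27.3%. CON 3 was lowest in only 3 falling genes, against 47.4% over eligible genes, since a low CON 3 tends to break the falling order. The share of 27.3% is therefore not a like baseline for CON 2. The genes share these libraries and are not independent of each other. In the rising genes LPS 1 was the lowest LPS library in 15 of 26, against 39.7% over eligible genes, and the GEN libraries shared the top place, with GEN 1, GEN 2 and GEN 3 highest in 8, 8 and 10 genes. The median coefficient of variation of a falling gene was 4.89% in GEN, 4.09% in LPS and 3.23% between CON 1 and CON 2, beside 11.4%, 11.2% and 8.53% over eligible genes. A narrow spread within groups favours the order, so these values are partly set by the choice of genes.

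Few of the genes lay close together. The rising genes lay on 13 chromosomes and the falling genes on 22 chromosomes or scaffolds. Chromosome 2 held 5 of the 26 rising genes (19.2%) and 2 of the 67 falling genes (2.99%), with 9.82% of eligible genes. Chromosome 1 held 5 rising and 14 falling genes (20.9%), with 15.2% of eligible genes. Of 93 genes, 3 pairs lay within 100 kb of each other. On chromosome 20 a falling gene on the - strand (5120205 to 5122460) and a rising gene on the + strand (5127284 to 5143926) lie 4.82 kb apart with no gene model between them. The falling one measured 12.7, 12.1 and 10.8 FPKM in GEN, 13.8, 14.5 and 13.3 in LPS and 16.1, 14.8 and 17.8 in CON. The rising one measured 20.4, 20.8 and 18.4 FPKM in GEN, 17.9, 14.9 and 17.1 in LPS and 14.4, 13.1 and 11.2 in CON. Their opposite directions between groups restate how they were chosen. Within GEN both were lowest in GEN 3, and within CON the falling gene was highest and the rising gene lowest in CON 3. On division by the sum of gene fragments CON 3 was lowest in both. The falling gene then measured 16.2, 15.1 and 13.6 in CON, and the rising gene 14.5, 13.4 and 8.62.

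The other pairs were of falling genes with 5 gene models between them. On chromosome 4 the genes at 2126107 to 2141053 and 2185735 to 2190011 lie 44.7 kb apart. The first averaged 18.4 ± 0.450 FPKM in GEN, 20.3 ± 1.57 in LPS and 25.6 ± 2.81 in CON (± SD, 3 libraries a group), and CON 3 was its lowest CON library. The second averaged 21.5 ± 1.61 FPKM in GEN, 24.3 ± 0.514 in LPS and 33.1 ± 9.76 in CON, or 27.4 without CON 3. On chromosome 18 the genes at 10388535 to 10391785 and 10447902 to 10451391 lie 56.1 kb apart. The first averaged 28.1 ± 0.959 FPKM in GEN, 31.1 ± 1.21 in LPS and 46.9 ± 23.8 in CON, with CON 3 at 2.24 times the mean of CON 1 and CON 2. The second averaged 9.16 ± 1.14 FPKM in GEN, 11.2 ± 0.187 in LPS and 14.0 ± 2.69 in CON, or 12.5 without CON 3. The closest gathering, chosen after the values were seen, was of 4 falling genes in chromosome 1 from 50691560 to 52109433, a stretch with 57 eligible genes. ENSGALG00000012218 is one of them. So is the gene at 52103308 to 52109433, which had the widest smaller gap of all falling genes. That gene measured 35.7, 34.4 and 30.6 FPKM in GEN, 39.1, 47.6 and 47.4 in LPS and 52.7, 55.6 and 52.3 in CON, and CON 3 was its lowest CON library. It overlaps another model on its own strand, which 13 falling and 2 rising genes do in all. The next widest belonged to ENSGALG00000050294 and to a gene on chromosome 3 (91915385 to 91937137), which measured 33.8, 34.4 and 31.4 FPKM in GEN, 38.9, 38.1 and 39.2 in LPS and 43.3, 41.7 and 63.6 in CON. Any overlap, on either strand, was found for 22 of 67 falling and 3 of 26 rising genes, and for 26.7% of eligible genes. Overlap on the same strand alone was not counted over eligible genes.

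limma was fitted to all 13506 genes that passed the same minimum FPKM, whatever their chromosome. Here 0 genes (0% in each direction) passed an adjusted p under 0.05 in GEN vs CON, LPS vs CON or GEN vs LPS, and so none of the 93. At an unadjusted p under 0.05 in GEN vs CON there were 22 of the rising and 54 of the falling genes, where 4.68% of all genes were higher and 6.12% lower. In LPS vs CON there were 9 rising and 6 falling genes, with 2.45% of all genes higher and 2.07% lower. In GEN vs LPS there were 6 rising and 2 falling genes, with 1.74% higher and 1.5% lower. The 3 comparisons share libraries and were all used by the choice of genes, so nothing is read from these counts. The limma-voom fit of recovered fragments also called 0 genes. With libraries weighted by quality, GEN vs CON called 9 rising and 5 falling genes, where 0.281% of all genes were called higher and 0.118% lower.

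The balance of rising and falling genes turned on division by the sum of fragments, but not with quantile normalization. Of the 55 rising genes found on division by the sum of fragments, 26 were the rising genes described here, and the 16 falling ones were all falling genes of the deposited order. This scaling moved the median difference of all genes tested to 0.18 (log2) in GEN vs CON and 0.16 in LPS vs CON. Without CON 3 it gave 70 rising and 41 falling genes, in an alternative chosen after the data were seen. Quantile normalization gave 15 rising and 37 falling genes, of which 11 and 25 were among those described. Division by the sum multiplies the FPKM of LPS by 1.034 to 1.061 and that of CON by 0.767 to 1.022. A rising gene could therefore not lose its order of LPS over CON, so the 26 kept are largely set in advance. For the same reason the 16 falling ones had CON above LPS as deposited. In all, 11 rising and 9 falling genes kept the order under both scalings, and for the rising genes this is the count of quantile normalization alone. The rising ones include the 6 with the largest GEN minus CON differences, and ENSGALG00000050294 and ENSGALG00000012218 are among the falling ones. The gene of chromosome 1 at 52103308 to 52109433 kept it under neither.

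The conditions beyond the order left out some genes. Without the minimum FPKM, 10 more genes were rising and 1 more falling. Among the 13506 genes of the fit, 7 more were rising: 4 on the chromosomes set aside and 3 shorter than 100 bases. Another 24 were falling, of which 22 lay on those chromosomes and 2 carry no Ensembl identifier.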

How the data were processed

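Libraries were prepared with the Illumina TruSeq kit from total thymic RNA isolated with Trizol, per the labels' protocols. Tools named in the submitters' processing notes are CASAVA 1.8 and featureCounts 1.5.0-p3, with build GRCg6a. For the aligner, annotation release and strand setting: not given in the sources used here. FPKM values of 9 libraries were computed and deposited by the authors, with 0 columns of other samples. Multiplied by gene length, the FPKM of a library were whole multiples of 1 step (100% of values above 0, within 0.01), which gave whole fragments and the total used for scaling.

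The order rule was applied to the deposited FPKM. Across 13506 genes, log2(FPKM + 1) was modelled in limma 3.58.1 (R 4.3.3) with its intensity trend, two-sided with Benjamini-Hochberg adjustment. The fit was also run on simulated data that held no outlying library and no length shift. That run says nothing of the effect of CON 3 on the fit. Differences on this scale understate changes of low genes. Other tools were Python 3.11.15 and matplotlib 3.10.9. No libraries were identical, and those of one group differed by 14.9 to 280 in chi-square per degree of freedom, so all were kept apart. Named genes are those with the 8 largest GEN minus CON differences, the 4 highest means, the 3 widest and 2 narrowest gaps per direction, the 2 nearest misses, and members within 100 kb of each other. Identifiers are given for the first 2 of each direction. The genes, lists and rules were chosen with earlier results of these data known. Marker and pathway lists were not usable without gene names. Alternatives were other filters, scalings, pseudocounts, weights, a replicate block, and leaving out each library.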

Additional observations from a re-analysis of the deposited data

How the results depend on the processing

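The number of rising and falling genes depended on scaling and on single libraries. Leaving out 1 library, which can only add genes to the order, gave 38 to 114 rising and 93 to 208 falling genes, the highest without LPS 1 and without CON 2. Quantile normalization gave 15 and 37, and scaling by the sum of fragments 55 and 16, or 70 and 41 without CON 3 as well. Gaps of at least 1.1-fold left 4 and 0. No filter (36 and 68), 1 FPKM in at least 6 libraries (26 and 67) and 10 fragments in at least 3 (33 and 67) stayed within 1.5 times. limma called 0 of the 93 genes in each comparison under every setting run, except 14 in GEN vs CON with quality weights. For GEN vs CON, the median log2 difference of the rising genes was 0.63, and 0.50 with quantile normalization, 0.77 with the sum of fragments, 0.85 with a pseudocount of 0.1, and 0.51 to 0.77 leaving out 1 library. For LPS vs CON it was 0.41, and 0.56 with the sum of fragments and 0.27 to 0.47 leaving out 1 library. For the falling genes GEN vs CON was -0.54, and -0.32 with quantile normalization, -0.34 with the sum of fragments and -0.61 to -0.32 leaving out 1 library. Their LPS vs CON was -0.32, and -0.15 with quantile normalization, -0.14 with the sum of fragments and -0.41 to -0.14 leaving out 1 library, the smallest difference being without CON 3. Of 1326 recomputed differences of 34 named genes 2 changed sign, those of the chromosome 3 gene at 81503064 to 81509231 with quantile normalization, 0.0381 in GEN vs CON and 0.23 in LPS vs CON. The cause was not tested. No label explains the replicate numbers, and deviations of same-number libraries correlated at -0.1 to 0.34, with 4 of 9 pairs over 0.1 and 4 of 9 libraries closest to their own number. With a replicate block limma called 0 of the 93 genes, and the medians kept their values (0.63 and -0.54 in GEN vs CON). Depth can limit the order for genes under 100 fragments, as 9 rising and 1 falling had in some library, and for narrow gaps. Gaps of a few percent did not always come with overlapping counting intervals. The chromosome 3 gene at 81503064 to 81509231 had gaps of 1.03-fold and 1.06-fold without overlap. The part of depth in the order was not tested.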
